A study of Mus musculus with 2 samples.

Results

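The 7 genes described here store, move or bind metal ions: the metallothionein genes Mt1 and Mt2, the siderophore-binding lipocalin gene Lcn2, the ferritin heavy and light chain genes Fth1 and Ftl1, the iron exporter gene Slc40a1 and the transferrin receptor gene Tfrc. They were listed by name out of 16416 genes measured, and all 7 were found in the deposited expression table. They were listed with their levels and library differences in these data already known, so their values are given as a description, with no test. Each was followed across the 22 deposited cell clusters and both libraries.

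The mutant mice (S303/7A) carried heat shock factor 1 (HSF1) with alanine in place of serines 303 and 307, and the other mice were wild type (WT). HSF1 is a transcription factor that drives chaperone expression when proteins misfold. Tumors engrafted in these mice were digested, and live CD45+ and CD45− cells, where CD45 marks leukocytes, were sorted and mixed 5 to 1 before 3′ droplet sequencing (10x Genomics, version 2 chemistry). There was 1 library of pooled tumors per genotype, with 4 mice named in the series' design text, so animals cannot be told apart and no difference between libraries is replicated. Intervals therefore describe counting error alone. The sources used here do not give the origin of the tumor cells or the age and strain of the mice, and the mutation is described for the host mice.

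The S303/7A library held 4802 cells with a median of 13028 UMIs (unique molecular identifiers, each marking 1 captured RNA molecule), against 6654 cells with a median of 7698 UMIs in the WT library. The depth gap differed by cluster: S303/7A cells were 1.84 to 2.45 times as deep as WT cells at the median in the macrophage clusters and 0.990 to 1.23 times as deep in the tumor clusters. Of the cell barcodes, 48 occurred in both libraries. Levels below are means over cells of UMIs per 10000 UMIs of the cell (CP10K), and log2 ratios are S303/7A over WT with 0.1 CP10K added to both. The cluster names are the authors' classes, written C01 Tumor and so on, and 2 were checked against markers. The macrophage markers C1qa, C1qb, C1qc, Adgre1, Ms4a7, Apoe and Mrc1 summed to between 159 and 441 CP10K in S303/7A and between 88.7 and 246 CP10K in WT in the clusters named MF (macrophage). C18, deposited as Gr, held the neutrophil markers S100a8, S100a9, Csf3r and Retnlg at 490 CP10K in S303/7A and 435 CP10K in WT.

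Metallothioneins are small cysteine-rich proteins that bind zinc and copper, and their genes are switched on by the zinc-sensing factor MTF1 through metal response elements in the promoter. Cells take up transferrin-bound iron through the transferrin receptor, keep it in shells built of ferritin heavy and light chains, and release it through ferroportin, the product of Slc40a1. Macrophages recycle iron from red cells in this way, and neutrophils carry lipocalin 2, which binds the siderophores with which bacteria collect iron. Iron regulatory proteins bind a hairpin, the iron response element, in several of these messages: in the 5′ UTR it holds back translation of ferritin and ferroportin when iron is low, and in the 3′ UTR it keeps the transferrin receptor message from decay. The RNA levels measured here therefore do not show the translational side of that control.

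The hairpins are printed because they divide the iron genes into those read through translation and the 1 read through message stability. A search of GENCODE M21 transcripts on GRCm38 looked for a C, 5 bases, the loop CAGTGN with A, C or T at N, and 5 bases that pair with the first 5, G-T pairs allowed. The loop is in capitals, and each sequence lies within 1 exon. Fth1, Ftl1 and Slc40a1 each held 1 match in the 5′ UTR.
Fth1 (chr19:9982734-9982758, plus strand): cctgcttcaaCAGTGCttgaacgga
Ftl1 (chr7:45459781-45459805, minus strand): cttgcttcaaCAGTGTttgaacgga
Slc40a1 (chr1:45925467-45925491, minus strand): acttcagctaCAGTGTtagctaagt
Tfrc held 4 matches, all in the 3′ UTR and all on the plus strand.
Tfrc a (chr16:32631221-32631245): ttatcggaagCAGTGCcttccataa
Tfrc b (chr16:32631600-32631624): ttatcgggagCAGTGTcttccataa
Tfrc c (chr16:32631665-32631689): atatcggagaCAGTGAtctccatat
Tfrc d (chr16:32631712-32631736): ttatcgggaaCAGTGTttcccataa
Such a match was held by 52 of 49055 annotated 5′ UTRs (0.106%) and by 159 of 44400 annotated 3′ UTRs (0.358%), counted per transcript.

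The metallothionein promoters are printed because the genes are neighbours that carry the same kind of element: on chromosome 8, Mt2 ends 5514 bases before Mt1 starts. Capitals mark the metal response element core, searched as TGCACNC or TGCGCNC on both strands in RefSeq's promoter windows (GRCm38.p6), and the stretches printed end before the annotated starts.
Mt1 (chr8:94178839-94179081, plus strand): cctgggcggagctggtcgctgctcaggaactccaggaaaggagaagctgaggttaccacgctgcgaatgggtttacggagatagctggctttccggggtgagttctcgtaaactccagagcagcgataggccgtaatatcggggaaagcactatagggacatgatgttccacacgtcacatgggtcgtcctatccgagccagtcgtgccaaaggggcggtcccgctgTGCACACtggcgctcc
Mt2 (chr8:94172368-94172617, plus strand): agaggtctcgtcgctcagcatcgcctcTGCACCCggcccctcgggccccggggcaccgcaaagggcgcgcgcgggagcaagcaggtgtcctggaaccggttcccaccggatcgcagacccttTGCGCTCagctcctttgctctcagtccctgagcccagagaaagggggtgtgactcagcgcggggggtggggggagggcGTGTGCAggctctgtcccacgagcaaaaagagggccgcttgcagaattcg
In its whole window of 300 bases Mt1 held 3 matches and Mt2 held 4. Those not printed lie past the ends of the stretches, 2 for Mt1 within chr8:94179089-94179117 and 1 for Mt2 within chr8:94172619-94172631. Of 32851 promoter windows, 1.97% held 3 or more and 0.518% held 4 or more. Tfrc held 2 in 1 of its windows, Lcn2, Fth1 and Ftl1 held none, and Slc40a1 had no window in the table. The heat shock element pairs GAANNTTC and TTCNNGAA, searched because HSF1 binds repeats of GAA, had no match in any member's window, and 15.1% of all windows held one.

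The 7 genes differed widely in level and in the cell types where they were highest (plot of levels by cluster). Since the 3′ libraries count 1 tag per molecule, levels need no scaling by gene length. Fth1 and Ftl1 were found in every cluster, Mt1 was highest in tumor cells, Lcn2 and Slc40a1 were highest in neutrophils, and Tfrc was highest in plasmacytoid dendritic cells (C19 pDC).

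**Figure D1:**
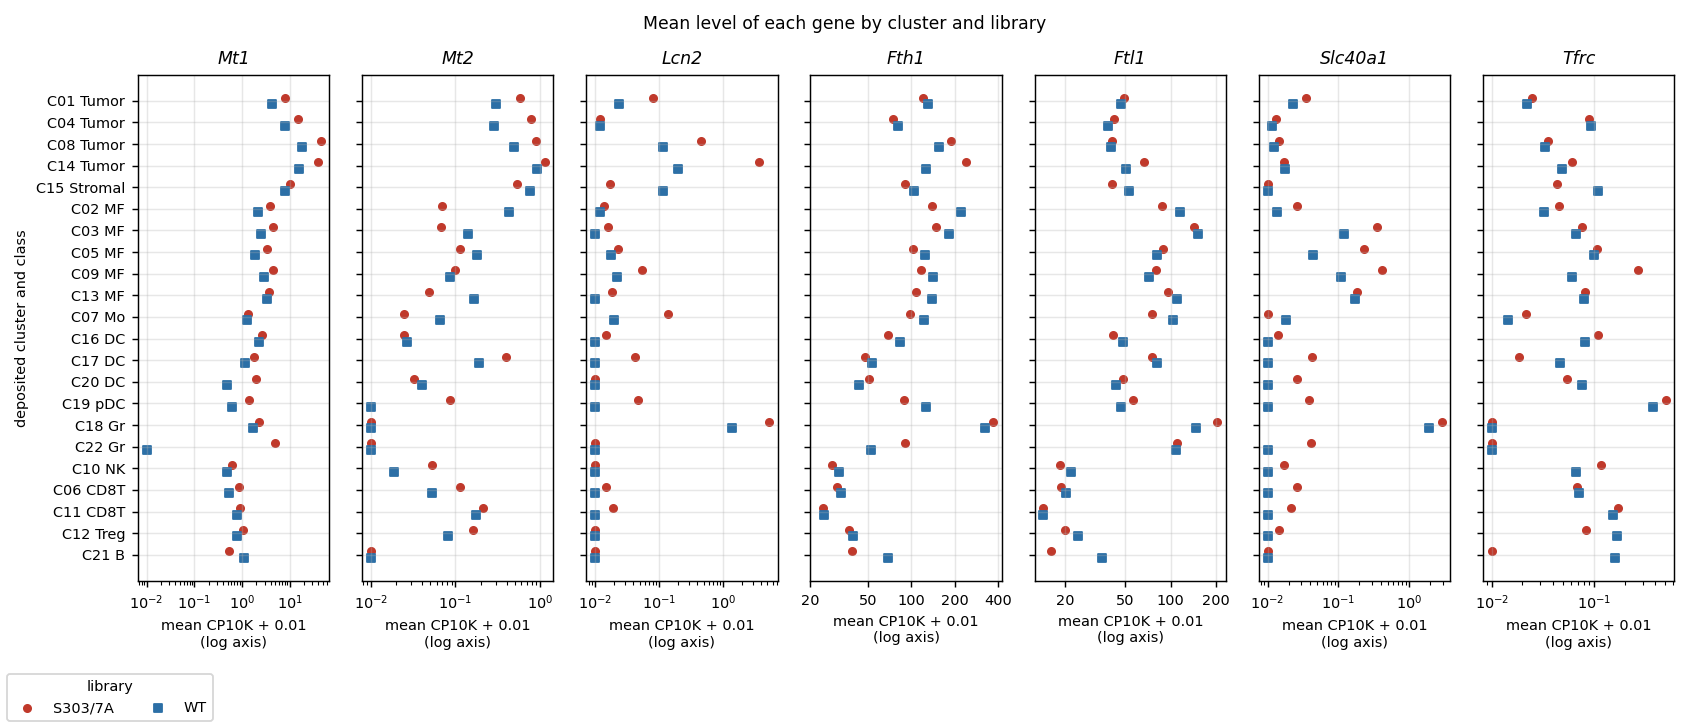
Mean level of each gene (CP10K plus 0.01, log axes that differ between panels) in each of the 22 deposited clusters, grouped by class, with red circles for the S303/7A library and blue squares for the WT library. Mt1 is highest in C08 Tumor, at 44.7 CP10K in S303/7A and 18.7 CP10K in WT, while Fth1 is highest in C18 Gr.

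Clusters were compared between libraries where each library had at least 50 cells, which held for 17 of 22, and a gene was compared in a cluster where it reached 0.1 CP10K in at least 1 library. This left 76 of 119 possible pairs of gene and cluster. S303/7A was higher by at least 1.5-fold (a log2 ratio of 0.58) in 21 pairs and lower in 4. Over all genes 4.67% of 122961 such pairs were higher past 1.5-fold and 5.86% were lower, against 27.6% and 5.26% of the members' pairs, and since the members were chosen with these values known, nothing is read from the contrast. Mt1 supplied 9 of the 21 higher pairs, Mt2 4, Lcn2 and Slc40a1 3 each, and Fth1 and Tfrc 1 each, while Ftl1 passed in none of 17 clusters in either direction.

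**Figure D2:**
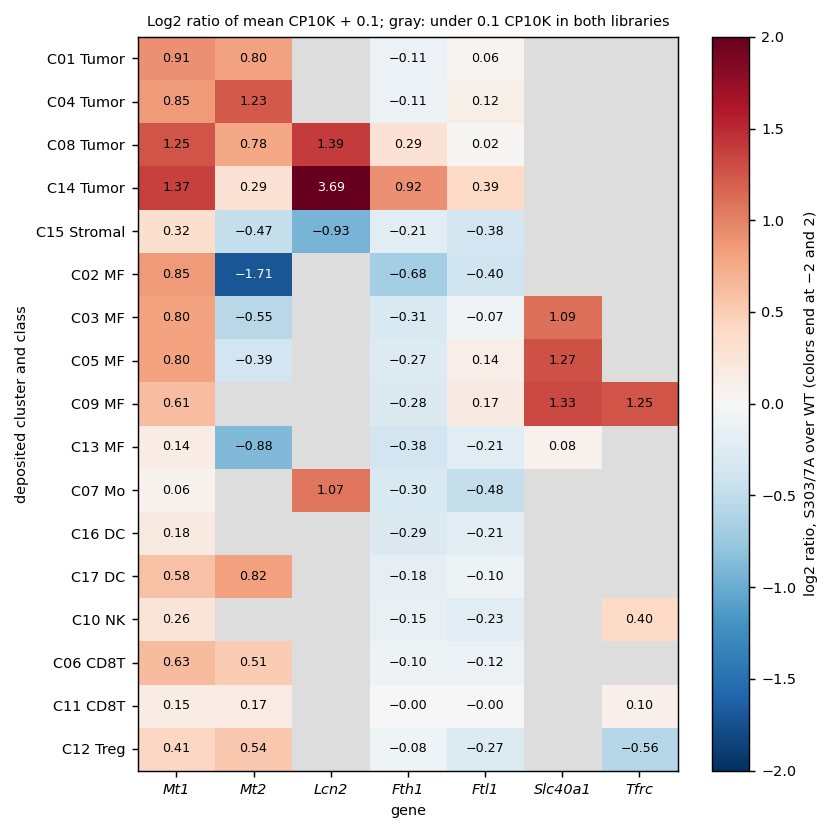
Log2 ratio of S303/7A over WT for each gene (columns) in each of the 17 compared clusters (lines, grouped by class), colored from blue (lower in S303/7A) to red (higher), with gray where both libraries were under 0.1 CP10K. The Mt1 column is above 0 in all 17 clusters at these settings, from 0.06 in C07 Mo, which is −0.02 after thinning, to 1.37 in C14 Tumor, while C15 Stromal turns to −0.31 without the shallowest 10% of cells, and the Fth1 column, on this scale of shares of UMIs, is below 0 in 15 of 17.

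Mt1 (chr8:94179082-94180327) was the metallothionein that carried most of the RNA, and it was higher in the S303/7A library in all 4 tumor clusters. In C14 it was at 40.2 CP10K in S303/7A and 15.5 CP10K in WT, a log2 ratio of 1.37 and a ratio of summed UMIs of 2.80 (95% interval 2.73 to 2.87). In C08 it was at 44.7 CP10K in S303/7A and 18.7 CP10K in WT, a log2 ratio of 1.25 and a UMI ratio of 2.40 (2.36 to 2.44). C01 and C04 had lower levels and log2 ratios of 0.91 and 0.85. C01 was at 8.06 CP10K in S303/7A and 4.25 CP10K in WT, and C04 at 14.8 CP10K in S303/7A and 8.18 CP10K in WT. Of all genes tested, 0.429% were higher past 1.5-fold in C01, 0.492% in C04, 0.798% in C08 and 2.46% in C14, and 0.113% of 6207 genes, 7 in all, were higher in each of the 4. Besides Mt1 these were the cysteine protease inhibitor gene Cst3, the growth arrest gene Gas1, the transcriptional inhibitor gene Id2, Rps27rt, and the macrophage genes Apoe and C1qa.

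The difference in tumor cells lay along the whole distribution of cells and not only at its upper end (plot of Mt1 by cell). In C08 the 10th percentile, the median and the 90th percentile of cells were at 7.53, 26.6 and 97.0 CP10K in S303/7A, against 2.62, 10.4 and 44.2 CP10K in WT. In C14 they were at 5.30, 22.5 and 95.3 CP10K in S303/7A, against 1.59, 5.57 and 35.5 CP10K in WT. With every cell thinned to 1000 UMIs, 82.4% (74.9 to 88.4) of C14 cells kept an Mt1 UMI in S303/7A, against 48.5% (42.0 to 55.1) in WT. The same share in natural killer (NK) cells (C10) was 5.70% in S303/7A and 4.55% in WT. Macrophage markers were also higher in S303/7A in the tumor clusters, summing to between 2.98 and 4.37 CP10K in S303/7A and between 0.979 and 1.66 CP10K in WT, with none of the 7 markers at 0. Mt1 itself was lower in macrophages than in tumor cells, at between 3.33 and 4.59 CP10K in S303/7A and between 1.87 and 3.42 CP10K in WT over the MF clusters. The part of macrophage RNA in the Mt1 values of the tumor clusters was not tested.

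**Figure D3:**
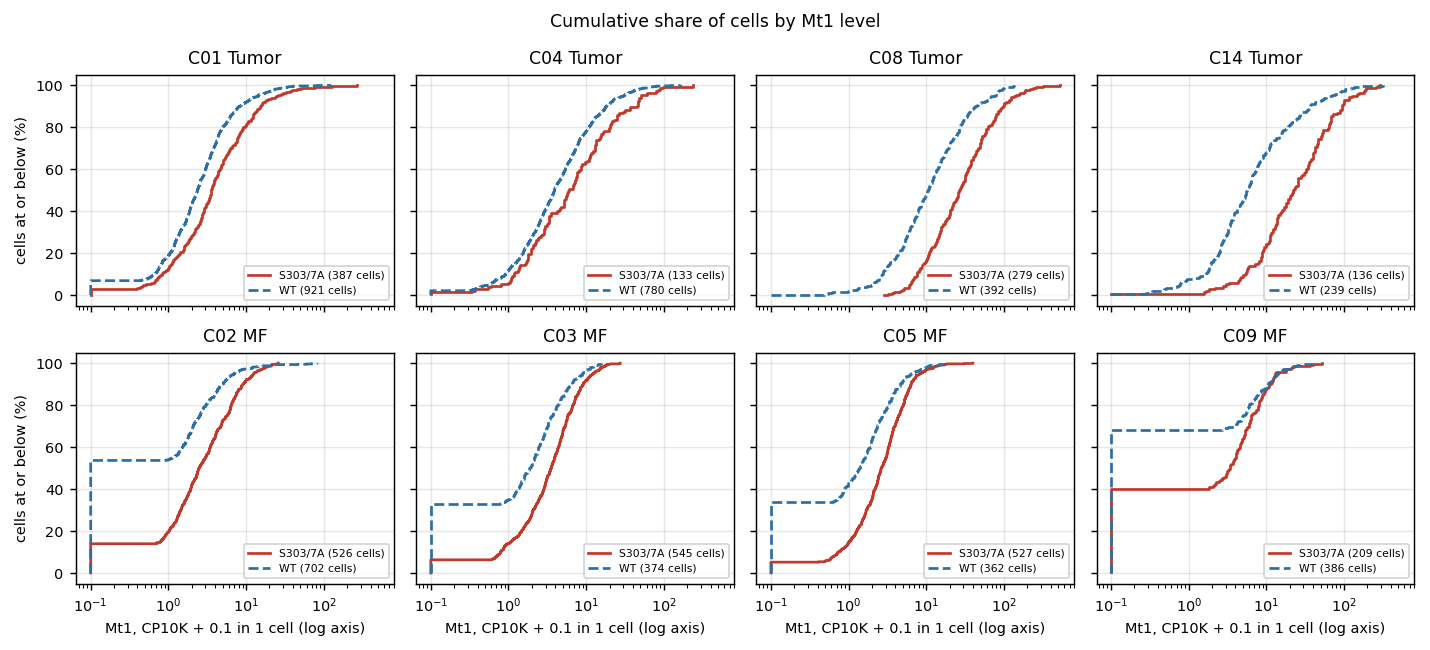
Cumulative share of cells (percent) against the Mt1 level of the cell (CP10K plus 0.1, log axis) in the 4 tumor clusters (top) and in 4 MF clusters (bottom), with a solid red line for S303/7A and a dashed blue line for WT. The S303/7A curve lies right of the WT curve over most of each panel, and cells with no Mt1 UMI stand at the left edge: in C02 a UMI was found in 85.9% of S303/7A and 46.3% of WT cells.

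Within the copy number groups deposited with the annotation, S303/7A was also higher in the tumor clusters. In cells of group CNV3, Mt1 was at 39.6 CP10K in S303/7A and 14.2 CP10K in WT in C14, at 44.9 CP10K in S303/7A and 20.1 CP10K in WT in C08, and at 17.5 CP10K in S303/7A and 8.87 CP10K in WT in C04. In the Stromal cluster C15, Mt1 was at 10.2 CP10K in S303/7A and 8.13 CP10K in WT, a log2 ratio of 0.32, and the UMI ratio of 1.02 (0.921 to 1.12) included 1. Its copy number groups went in opposite directions, with CNV1 at 16.6 CP10K in S303/7A and 8.80 CP10K in WT and CNV2 at 4.55 CP10K in S303/7A and 5.52 CP10K in WT. CNV3 was given for the WT library alone, at 11.4 CP10K, since groups of at least 20 cells are shown.

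Macrophages had less Mt1 than tumor cells, and 4 of their 5 clusters were higher in S303/7A past 1.5-fold. C03 was at 4.40 CP10K in S303/7A and 2.49 CP10K in WT (log2 ratio 0.80). C02 was at 3.93 CP10K in S303/7A and 2.14 CP10K in WT (0.85), C05 at 3.33 CP10K in S303/7A and 1.87 CP10K in WT (0.80), and C09 at 4.59 CP10K in S303/7A and 2.96 CP10K in WT (0.61). C13 was at 3.78 CP10K in S303/7A and 3.42 CP10K in WT, a log2 ratio of 0.14. Of all genes tested, 3.01% were higher past 1.5-fold in C02, 2.46% in C03, 2.38% in C05 and 12.2% in C09, and 0.433% of 6238 were higher in all 4. After thinning, the share of cells with an Mt1 UMI was 26.8% (23.0 to 30.8) in S303/7A and 13.8% (10.4 to 17.8) in WT in C05, and 29.7% (25.9 to 33.8) in S303/7A and 21.9% (17.8 to 26.5) in WT in C03. Macrophage identity moved with the libraries too: monocyte markers in C02 summed to 30.1 CP10K in S303/7A and 98.8 CP10K in WT, with none of the 4 at 0, and the part of this shift in the Mt1 values was not tested.

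Monocytes (C07 Mo) were at 1.36 CP10K in S303/7A and 1.30 CP10K in WT, and dendritic cells (C16 and C17) at 2.62 and 1.78 CP10K in S303/7A and at 2.29 and 1.16 CP10K in WT. Of the 17 compared clusters, the T and NK cell clusters had the lowest levels, from 0.597 CP10K in NK cells to 1.07 CP10K in regulatory T cells (C12 Treg) in S303/7A, and from 0.484 CP10K in NK cells to 0.798 CP10K in C11 in WT. Among the clusters too small to compare, the B cells of C21 were at 0.523 CP10K in S303/7A and 1.07 CP10K in WT, and the dendritic cells of C20 at 2.0 CP10K in S303/7A and 0.469 CP10K in WT. In the CD8 T cell cluster C06, Mt1 was at 0.853 CP10K in S303/7A and 0.515 CP10K in WT, which passed 1.5-fold, as 2.37% of genes tested in C06 did. These values were 11.8% and 11.7% of the mean Mt1 level of their libraries. The macrophage genes Apoe and C1qb stood at 9.4% and 11.6% of their library means in the same S303/7A cells and at 11.2% and 14.6% in the same WT cells. The macrophage lysozyme gene Lyz2 stood lower, at 8.0% in S303/7A and 4.84% in WT, as did Cd74, at 8.87% in S303/7A and 7.02% in WT. In C11, Mt1 was at 12.4% of its library mean in S303/7A and 18.04% in WT, against 7.79% in S303/7A and 10.3% in WT for Apoe. The part of free RNA in the Mt1 values of these cells was not tested. The log2 ratio of Mt1 was above 0 in all 17 compared clusters, as it was for 0.891% of 4040 genes tested in all of them. In C15 it turned to −0.31 without the shallowest 10% of cells, and in C07 to −0.02 after thinning.

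Mt2 (chr8:94172664-94173568) was much scarcer than its neighbour, with between 15.4 and 49.2 UMIs of Mt1 per UMI of Mt2 in S303/7A tumor clusters and between 16.3 and 34.3 in WT ones. It was higher past 1.5-fold in S303/7A in C04, at 0.778 CP10K against 0.275 CP10K in WT (log2 ratio 1.23), in C01, at 0.574 CP10K against 0.287 CP10K in WT (0.80), and in C08, at 0.887 CP10K against 0.475 CP10K in WT (0.78). In C14, where it was highest in both libraries, it was at 1.12 CP10K in S303/7A and 0.895 CP10K in WT (0.29). These means rest on few cells. In C01 the 5% of cells highest in Mt2 held 94.7% of the level in S303/7A and 90.6% in WT, and a single cell held 227 of 461 UMIs in S303/7A and 112 of 432 in WT. Without cells holding a hemoglobin UMI, which were 21.7% of S303/7A and 2.71% of WT cells, the log2 ratio in C01 turned to −0.46. Within C01, Mt2 was at 4.99 CP10K in S303/7A and 0.815 CP10K in WT in copy number group CNV1, which held 32 S303/7A and 105 WT cells. In CNV2 it was at 0.177 CP10K in S303/7A and 0.303 CP10K in WT. In C04 the same 5% of cells held 65.1% of the level in S303/7A and 62.1% in WT, and 33.8% of S303/7A cells and 26.3% of WT cells had a UMI.

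In 2 of the MF clusters Mt2 passed 1.5-fold in the direction opposite to that seen in tumor cells. It was lower in S303/7A in C02, at 0.0588 CP10K against 0.418 CP10K in WT (log2 ratio −1.71), and in C13, at 0.0381 CP10K against 0.153 CP10K in WT (−0.88), where 5.03% and 1.8% of all genes tested were lower past 1.5-fold. In C02 the cells with an Mt2 UMI were 30 of 526 in S303/7A and 45 of 702 in WT, and the highest cell had 4 UMIs in S303/7A and 17 in WT. Without the 5% of cells highest in Mt2, the log2 ratio in C02 was −0.15. The dendritic cell cluster C17, where 10.2% of all genes tested were higher past 1.5-fold, was higher, at 0.388 CP10K in S303/7A and 0.177 CP10K in WT (0.82), on 40 and 9 UMIs, and turned to −1.72 after thinning. Neutrophils had no Mt2 UMI in 41 S303/7A and 39 WT cells, and Mt4, a family member of stratified epithelium, had at most 12 UMIs in any cluster and library, all of them in tumor clusters. In C04 the median Mt1 level was 12.2 CP10K in S303/7A cells with an Mt2 UMI and 4.24 CP10K in those without, against 7.23 CP10K in WT cells with one and 3.12 CP10K in those without. In S303/7A cells of C08 the medians were closer, 29.3 CP10K with an Mt2 UMI and 25.8 CP10K without. The means there were in the other order, 41.7 CP10K with one and 45.9 CP10K without.

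Lcn2 (chr2:32384633-32388252, minus strand) had the largest ratio of any member, in the tumor cluster C14. It was at 3.64 CP10K in S303/7A and 0.190 CP10K in WT, from 1420 and 96 UMIs, a log2 ratio of 3.69 and a UMI ratio of 26.2 (21.3 to 32.6). In all, 56 of 136 S303/7A cells had a UMI, against 9 of 239 WT cells, so the difference lay in how many cells had the message as well as in the level. After thinning the shares were 17.6% (11.6 to 25.1) in S303/7A and 0.837% (0.102 to 2.99) in WT (plot of shares of cells). In C08 it was at 0.443 CP10K in S303/7A and 0.107 CP10K in WT, a log2 ratio of 1.39, with a UMI in 49 S303/7A and 23 WT cells. The thinned intervals there overlapped, and the log2 ratio was 0.38 with a pseudocount of 1 CP10K. C01 was under the level needed for a comparison, at 0.0711 CP10K in S303/7A and 0.0142 CP10K in WT, and C04 had 1 UMI in S303/7A and 4 in WT. No NK cell had a UMI, 0 of 194 in S303/7A and 0 of 357 in WT, and after thinning these zeros allow up to 1.89% of S303/7A and 1.04% of WT cells with a UMI at that depth, which sets no limit on cells expressing the gene.

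Neutrophils (C18) were the normal cells with most Lcn2, at 5.26 CP10K in S303/7A and 1.41 CP10K in WT, from 13 of 41 and 5 of 39 cells. They were too few for the comparison. The neutrophil markers summed in C14 to 0.0692 CP10K in S303/7A and 0.0094 CP10K in WT with 1 of the 4 at 0 in each library. Within C14, Mt1 was at a median of 48.4 CP10K in the 56 S303/7A cells with an Lcn2 UMI and 12.5 CP10K in the other S303/7A cells. In WT it was at 35.3 CP10K in the 9 cells with one and 5.33 CP10K in the others. Monocytes (C07) were at 0.131 CP10K in S303/7A and 0.0101 CP10K in WT (log2 ratio 1.07), which rests on 15 and 2 cells in a cluster where 6.14% of all genes tested were higher past 1.5-fold. The Stromal cluster C15 was lower, at 0.00742 CP10K in S303/7A and 0.104 CP10K in WT (−0.93), which rests on 1 and 2 cells in a cluster where 23.9% of all genes tested were lower past 1.5-fold.

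**Figure D4:**
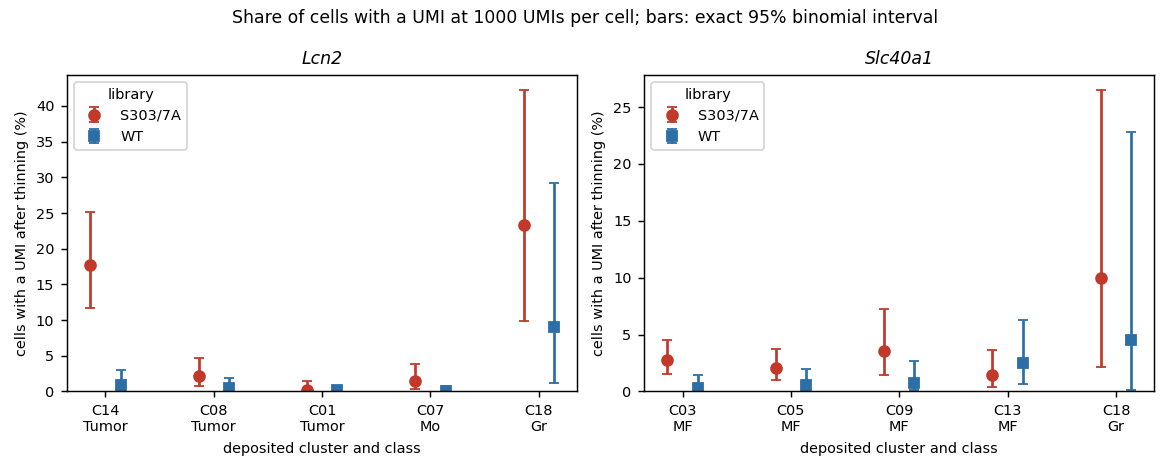
Share of cells (percent) with at least 1 UMI of Lcn2 (left) or Slc40a1 (right) after each cell was thinned to 1000 UMIs, in the clusters where the genes were found most, with S303/7A (red circles) left of WT (blue squares) and exact 95% binomial intervals as bars. For Lcn2 in C14 the shares are 17.6% in S303/7A and 0.837% in WT, and the intervals do not overlap, while in C18 they do.

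Fth1 (chr19:9980598-9985098) is the catalytic ferritin chain, which oxidizes iron for storage. It differed past 1.5-fold in 2 of 17 clusters, in opposite directions. In C14 it was at 238 CP10K in S303/7A and 126 CP10K in WT, a log2 ratio of 0.92 and a UMI ratio of 1.60 (1.59 to 1.62). The gap there lay in the upper part of the cells: the 10th percentile, the median and the 90th percentile were at 60.8, 155 and 543 CP10K in S303/7A, against 62.1, 104 and 223 CP10K in WT. In C02 it was lower, at 138 CP10K in S303/7A and 221 CP10K in WT, a log2 ratio of −0.68, with medians of 112 CP10K in S303/7A and 188 CP10K in WT. That direction belongs to the share of UMIs: in plain UMIs per cell the log2 ratio was 0.50. The S303/7A cells of C02 were 2.45 times as deep at the median. Under the other settings that gave a value, the log2 ratio stayed between −0.73 and −0.66. The value of −0.66 was that of cells with 3000 to 20000 UMIs.

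The other clusters stayed under 1.5-fold. C08 was at 189 CP10K in S303/7A and 155 CP10K in WT (log2 ratio 0.29), while the MF clusters C03, C05, C09 and C13 had log2 ratios between −0.38 and −0.27 and monocytes −0.30. The lowest levels were in the CD8 T cell cluster C11, at 24.6 CP10K in S303/7A and 24.7 CP10K in WT, and the highest in neutrophils, at 370 CP10K in S303/7A and 324 CP10K in WT. In neutrophils the medians were in the other order, 179 CP10K in S303/7A and 238 CP10K in WT, with 43.7% of the S303/7A level in the highest 5% of cells.

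Ftl1 (chr7:45457944-45459884, minus strand), the light chain, which helps form the iron core, passed 1.5-fold in no cluster. Its log2 ratios ran from −0.48 in monocytes, at 74.8 CP10K in S303/7A and 104 CP10K in WT, to 0.39 in C14, at 66.4 CP10K in S303/7A and 50.5 CP10K in WT. It was highest in neutrophils in S303/7A, at 204 CP10K against 148 CP10K in WT, while C03, the highest cluster of the WT library, was at 144 CP10K in S303/7A and 151 CP10K in WT. Its level is uncertain, since 89.8% of the 31-base words in the last 500 bases of its transcript also occur in other genes. That share was 22.6% for Fth1, 0.638% for Mt2 and 0% for Mt1, Lcn2, Slc40a1 and Tfrc. Of the same words of Ftl1, 80.2% occur in the copy Ftl1-ps1. Ftl1-ps1 itself had between 0.271% and 1.31% as many UMIs as Ftl1 in the clusters where it had any.

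The balance of the chains differed between clusters (plot of the ferritin chains). The tumor clusters C08 and C14 had the most heavy chain per light chain in S303/7A: 4.38 Fth1 UMIs per Ftl1 UMI in C08 in S303/7A and 3.68 in WT, and 3.35 in C14 in S303/7A and 2.52 in WT. C01 was at 2.39 in S303/7A and 2.74 in WT. The tumor cluster C04 was lower, at 1.80 in S303/7A and 2.12 in WT, below the Stromal cluster C15 in S303/7A, at 2.06, and close to it in WT, at 2.10. The MF clusters ran from 1.02 in C03 to 1.54 in C02 in S303/7A, and from 1.20 in C03 to 1.90 in C02 in WT. The dendritic cell cluster C17 had more light than heavy chain in both libraries, 0.641 in S303/7A and 0.638 in WT. Over 42 profiles of cluster and library with at least 20 cells, the log2 levels of Fth1 and Ftl1 had a Pearson correlation of 0.81, which describes profiles that share libraries and depth.

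**Figure D5:**
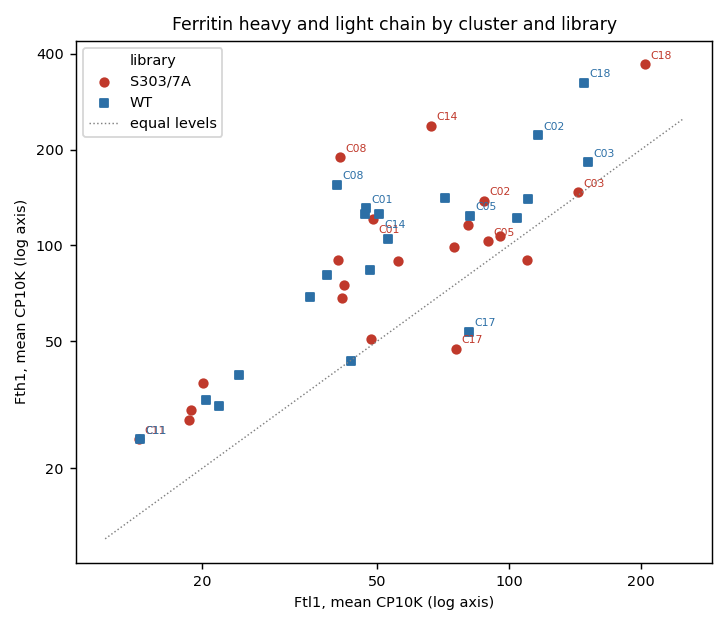
Mean level of Fth1 against that of Ftl1 (both CP10K, log axes) in each cluster with at least 20 cells in the library, with red circles for S303/7A, blue squares for WT and a dotted line of equal levels. In S303/7A, C08 and C14 lie farthest above the line. C03 lies near the line and C17 below it in both libraries.

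Slc40a1 (chr1:45908068-45926523, minus strand), the gene of the iron exporter ferroportin, was a macrophage and neutrophil gene here. In C03 it was at 0.347 CP10K in S303/7A and 0.109 CP10K in WT, a log2 ratio of 1.09 and a UMI ratio of 3.10 (2.04 to 4.90), with 109 of 545 S303/7A and 19 of 374 WT cells holding a UMI. In C05 it was at 0.223 CP10K in S303/7A and 0.0341 CP10K in WT (1.27), in 108 and 11 cells. In C09, whose cells are shallow, it was at 0.403 CP10K in S303/7A and 0.10 CP10K in WT (1.33), in 22 and 6 cells. Of all genes tested, 2.46% were higher past 1.5-fold in C03, 2.38% in C05 and 12.2% in C09. C13 was at 0.177 CP10K in S303/7A and 0.162 CP10K in WT (0.08), and C02 had 10 UMIs in S303/7A and 1 in WT. After thinning, 2.75% (1.55 to 4.50) of S303/7A cells in C03 had a UMI, against 0.267% (0.00677 to 1.48) of WT cells, and the intervals of the 2 libraries overlapped in C05, C09 and C13. With a pseudocount of 1 CP10K the log2 ratios were 0.28 in C03, 0.24 in C05 and 0.35 in C09. NK cells had 1 UMI in S303/7A and none in WT. Neutrophils had the highest level, at 2.89 CP10K in S303/7A and 1.95 CP10K in WT, in 11 of 41 and 5 of 39 cells, and were too few for the comparison.

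Tfrc (chr16:32608920-32632794), through which cells take up transferrin-bound iron, was low everywhere, and 4 clusters reached the level needed for a comparison. C09 was higher past 1.5-fold, at 0.260 CP10K in S303/7A and 0.0513 CP10K in WT (log2 ratio 1.25), on 13 and 3 UMIs, a UMI ratio of 4.13 (1.13 to 22.6), and at 0.26 with a pseudocount of 1 CP10K. Of all genes tested in C09, 12.2% were higher past 1.5-fold. Erythroid markers in C09 summed to 44.5 CP10K in S303/7A, with none of the 5 at 0, and 0.0501 CP10K in WT, with 3 at 0, and 1 S303/7A cell held 10906 of 10925 hemoglobin UMIs. Without cells holding a hemoglobin UMI the log2 ratio of Tfrc was 1.24. In the CD8 T cell cluster C11 it was at 0.162 CP10K in S303/7A and 0.144 CP10K in WT (0.10), and in NK cells at 0.108 CP10K in S303/7A and 0.0575 CP10K in WT (0.40). In regulatory T cells it was at 0.0738 CP10K in S303/7A and 0.157 CP10K in WT (−0.56), on 11 and 13 UMIs, and the UMI ratio of 0.526 (0.214 to 1.27) included 1. The highest level was in plasmacytoid dendritic cells, at 0.494 CP10K in S303/7A and 0.364 CP10K in WT, on 16 and 5 UMIs. The tumor cluster C04, whose cells were the deepest of the tumor clusters, had a UMI in 22.6% of S303/7A and 22.1% of WT cells, more than any other tumor cluster.

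Other iron and zinc genes were counted in 5 lists, of which 52 of 61 genes were in the table, giving 532 pairs of gene and cluster. Of these 41 (7.71%) were higher past 1.5-fold in S303/7A and 39 (7.33%) lower, with a median log2 ratio of 0.02. Over all gene and cluster pairs 4.67% were higher and 5.86% lower, with a median of −0.01. The iron uptake list had 10 of 55 pairs higher (18.2%) and 7 lower (12.7%), with a median of 0.06. Of the 10, 9 were Trf, the gene of transferrin, which was above 0 in all 13 clusters where it was compared. In C03 Trf was at 3.61 CP10K in S303/7A and 1.72 CP10K in WT (log2 ratio 1.03), in C02 at 2.38 CP10K in S303/7A and 1.00 CP10K in WT (1.17), and in C09 at 2.27 CP10K in S303/7A and 0.771 CP10K in WT (1.45). Ltf, the gene of the iron-binding lactoferrin, was lower in CD8 T cells, at 0.0604 CP10K in S303/7A and 0.536 CP10K in WT in C06 (−1.99). Slc11a2, the gene of the iron transporter DMT1, was higher in C14, at 0.276 CP10K in S303/7A and 0.141 CP10K in WT (0.64). It was lower in C09, at 0.0493 CP10K in S303/7A and 0.272 CP10K in WT (−1.32), on 3 and 15 UMIs. In C06 it was also lower, at 0.0287 CP10K in S303/7A and 0.101 CP10K in WT (−0.65), on 10 and 16 UMIs.

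The heme and hemoglobin list had 10 of 113 pairs higher (8.85%) and 9 lower (7.96%), with a median of 0.09. In C02 the heme oxygenase gene Hmox1 was at 0.449 CP10K in S303/7A and 1.05 CP10K in WT (−1.07), and the biliverdin reductase gene Blvrb at 1.24 CP10K in S303/7A and 2.47 CP10K in WT (−0.94). Hmox1 went the other way in C05, at 0.793 CP10K in S303/7A and 0.440 CP10K in WT (0.72), and was lower in C14, at 1.54 CP10K in S303/7A and 2.43 CP10K in WT (−0.63). Lrp1, which takes up heme bound to hemopexin, was higher in C05, at 1.34 CP10K in S303/7A and 0.711 CP10K in WT (0.83), and in C09. Over the 15 clusters where Lrp1 was compared, 3 were higher past 1.5-fold and 3 lower. Hp, the gene of the hemoglobin-binding haptoglobin, was lower in C02, at 0.222 CP10K in S303/7A and 0.593 CP10K in WT (−1.11), and higher in C14, at 0.115 CP10K in S303/7A and 0.00241 CP10K in WT (1.07).

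The list of iron oxidases and mitochondrial iron genes had 6 of 130 pairs higher (4.62%) and 7 lower (5.38%), with a median of 0.01. Its ferroxidase gene Cp, ceruloplasmin, was higher in the same tumor clusters as Lcn2: in C14 it was at 1.18 CP10K in S303/7A and 0.254 CP10K in WT (1.85), and in C08 at 1.75 CP10K in S303/7A and 0.715 CP10K in WT (1.18). Over the 9 clusters where Cp was compared, 2 were higher past 1.5-fold and 1 lower. The list of iron regulation and storage had 5 of 108 pairs higher (4.63%) and 8 lower (7.41%), with a median of −0.01. Hfe, which helps sense transferrin-bound iron, was higher in C13, at 1.21 CP10K in S303/7A and 0.733 CP10K in WT (0.66), and in C07. Over the 12 clusters where Hfe was compared, 2 were higher past 1.5-fold and 2 lower. The zinc list had 10 of 126 pairs higher (7.94%) and 8 lower (6.35%), with a median of −0.05. No gene of this list passed 1.5-fold in the tumor clusters, among them Mtf1, the factor that reads the metal response element. Over the 17 clusters where Mtf1 was compared, 1 was higher past 1.5-fold and 2 lower. The zinc exporter gene Slc30a1 was lower in monocytes, at 0.233 CP10K in S303/7A and 0.467 CP10K in WT (−0.77).

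The genes whose levels were most like each member's were found over the same 42 profiles among 3667 genes, as a description with no test. Mt1 was most like Prune2 (Pearson r 0.91), Vat1 (0.90) and Emp1 (0.87), and Mt2 like Tpm1 (0.86), Col18a1 (0.85) and Cdh13 (0.85). Lcn2 was most like Ptgs2 (0.82), Tnfrsf23 (0.78) and Rnf11 (0.75). Fth1 was most like Cebpd (0.88), Nfe2l2 (0.87) and Tnfaip2 (0.85), and Ftl1 like Bri3 (0.91) and the vacuolar proton pump genes Atp6v1g1 (0.89) and Atp6v0b (0.89). Slc40a1 was most like Ggt5 (0.91), Cpeb2 (0.89) and S100a9 (0.88), and Tfrc like Rpgrip1 (0.74), Pacsin1 (0.73) and Slco4a1 (0.70). Between members, Mt1 and Mt2 had a correlation of 0.73, Lcn2 and Mt1 of 0.39, and Tfrc was below 0 with each of the other 6.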

How the data were processed

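The authors deposited expression on a natural log scale, as ln(1 + UMIs per 100000 UMIs of the cell), rounded to 3 decimals, beside UMI and gene counts per cell as deposited counts and the mitochondrial share as a deposited percent, at most 9.98%. Per the submitters' processing notes, the tools were Cell Ranger and Seurat 3.0 and the builds mm10 and GRCm38. The sources used here state no cell filter and no doublet treatment. The shallowest cell has 538 UMIs. Undoing the log gave whole UMIs: 99.94% of nonzero values lay within 0.1 of a whole number, and totals differed by at most 3 UMIs. All deposited cells entered the values, and no doublet caller was run.

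Levels, log2 ratios (pseudocount 0.1 CP10K, which understates differences of low genes), ratios of summed UMIs with exact conditional Clopper-Pearson 95% intervals and shares with exact binomial 95% intervals were computed with pandas 2.3.3, numpy 2.4.6 and scipy 1.17.1 on Python 3.11.15. Thinning to 1000 UMIs left out 63 S303/7A and 199 WT cells. The measures were run on simulated counts drawn at the depths of C03 with counting error alone. The intervals assume the same, so that run does not show how they hold where few cells carry most UMIs. The members, the lists and most settings were chosen with earlier results of these data known. Named are all members, for each list at most the 4 genes with the highest level among those past 1.5-fold in macrophage, monocyte, NK, CD8 T or tumor clusters, and for each member the 3 genes most like it.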

Additional observations from a re-analysis of the deposited data

Results flagged for a closer look

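Differences between the libraries that took opposite directions in different cell types are given here for 3 genes, and in no case was the difference between cell types tested, since there is 1 library per genotype. Mt2 had a log2 ratio of 1.23 in the tumor cluster C04 and −1.71 in the macrophage cluster C02. The value in C02 rests on few cells and was −0.15 without the 5% of cells highest in Mt2. Lcn2 had a log2 ratio of 3.69 in the tumor cluster C14 and −0.93 in the Stromal cluster C15, where 1 S303/7A and 2 WT cells held a UMI. Fth1 had a log2 ratio of 0.92 in C14 and −0.68 in C02. In C02 it was 0.50 in UMIs per cell with no scaling, and between −0.73 and −0.66 under the other settings that gave a value.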

How the results depend on the processing

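The counts of 21 higher and 4 lower pairs became 9 and 1 with a pseudocount of 1 CP10K, 47 and 1 in UMIs per cell with no scaling, 13 and 7 in cells with 3000 to 20000 UMIs, 6 and 2 over deposited cell classes, and 10 and 1 past 2-fold. The lower count was 7 with a pseudocount of 0.01 CP10K, 10 after thinning to 1000 UMIs, and 1 without the 5% of cells highest in the gene. Of the 25 pairs past 1.5-fold, the direction turned in 3: for Mt2 in C17 after thinning (−1.72), for Fth1 in C02 in UMIs per cell (0.50) and for Mt2 in C01 without cells holding a hemoglobin UMI (−0.46). Of the 51 pairs under 1.5-fold, 30 turned under at least 1 setting, and 10 did so leaving aside UMIs per cell. The causes were not tested. Other settings left both counts within 1.5 times. Mt1 stayed between 0.73 and 1.66 in the 4 tumor clusters under every setting that gave a value, Lcn2 in C14 between 1.96 and 4.39, and Fth1 in C14 between 0.67 and 1.06. Dropping cells under 1000 UMIs and dropping the cells highest in the gene were chosen after seeing the data. Depth limits Tfrc, Mt2 outside tumor cells, and Lcn2 in C07 and C15, which rest on few UMIs. No paired analysis was possible because there was 1 library per genotype, and for the same reason no replicate could be left out.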

Other observations

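Mt3, the metallothionein known from brain, was scarce and, outside the Stromal cluster, found mostly in the S303/7A library. In the MF cluster C05 it had 40 UMIs in 32 of 527 S303/7A cells and none in 362 WT cells. C05 also held the T cell markers Cd3e, Cd3d, Cd8a and Foxp3, summing to 7.14 CP10K in S303/7A and 7.80 CP10K in WT. They summed to 1.69 CP10K in S303/7A and 1.93 CP10K in WT in C09, and to 0.203 and 0.123 CP10K in C03. The part of T cells in these Mt3 values was not tested. In the CD8 T cell cluster C06 Mt3 had 33 UMIs in 30 of 441 S303/7A cells and 2 UMIs in 2 of 387 WT cells. In C11 it had 22 UMIs in 18 of 176 S303/7A cells and 2 UMIs in 2 of 306 WT cells. In C09, 2 S303/7A cells held 7 UMIs and no WT cell held one, and in the Stromal cluster C15 1 S303/7A cell held 24 UMIs and 3 WT cells held 19. NK cells had none in either library. Hemoglobin UMIs were found in a larger share of S303/7A than WT cells in each of the 17 compared clusters. In C02, where S303/7A cells were 2.45 times as deep at the median, 12.7% of S303/7A and 1.57% of WT cells held one. In C14, where S303/7A cells were 0.990 times as deep, 34 of 136 S303/7A and 12 of 239 WT cells held one. These results were picked after their values were seen, and no difference was tested.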
